A study of Mus musculus with 23 samples.

Results

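Lungs of mice that had inhaled bacterial lipopolysaccharide (LPS) were compared between animals treated with recombinant and with native alpha1-antitrypsin (AAT). The groups are those named in the labels, LPS+recAAT (mice 6101 to 6105) and LPS+nAAT (mice 4101 to 4105), which together hold 10 of the 23 libraries of the series, 1 library per mouse. All 10 mice were male Balb/c mice that on 3 days breathed an LPS aerosol (0.21 mg/ml, 10 min a day) and were given 4 mg of AAT per kg body weight into the peritoneum 1 h after each exposure. The experiment ended 6 h after the last dose, when lungs were collected. The other groups serve here as a background: LPS+oxAAT (oxidized AAT at the same dose, n = 5), LPS (saline in place of AAT, n = 5) and air (clean air and saline, n = 3). The AAT was human in each case, and the labels give neither the cells in which recAAT was made nor the age of the mice.

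AAT is the serpin of blood plasma that inhibits neutrophil elastase, and in the lung it limits the damage done by neutrophil proteases. Inhaled LPS is sensed through TLR4 and its co-receptor CD14 on alveolar macrophages and epithelium. These cells then make CXC chemokines that draw neutrophils into the airspaces. Alveolar macrophages depend on the nuclear receptor PPAR-gamma and clear surfactant and debris, and many lung cells carry a circadian clock in which the repressor REV-ERB-alpha, the product of Nr1d1, restrains inflammatory genes.

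Values below are CPM, gene counts expressed on a common library size that was scaled by TMM. A gene is called at an adjusted p under 0.05 in the quasi-likelihood F test of edgeR. The adjustment is by the Benjamini-Hochberg method over all 17148 tested genes. The test takes its spread between mice within groups, estimated over all 23 libraries and not over the 10 compared alone. Log2 fold changes are LPS+recAAT over LPS+nAAT and carry their standard error (SE). Depth ran from 14.8 to 47.9 M gene counts in LPS+recAAT and from 21.4 to 41.4 M in LPS+nAAT libraries. Lung markers were abundant in both groups, with surfactant and other alveolar type 2 transcripts summing to 36910 to 47480 CPM in LPS+recAAT and to 40170 to 49090 CPM in LPS+nAAT. Transcripts of heart muscle, which can be carried along with lung, summed to 151 to 636 CPM in LPS+recAAT and to 48.7 to 656 CPM in LPS+nAAT, and none of the 11 was called. Liver markers were near 0 in both groups, at sums of 2.33 to 3.74 CPM in LPS+recAAT and 2.09 to 3.08 CPM in LPS+nAAT.

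A property of the libraries goes with the groups compared. Mt-Nd6 is a mitochondrial gene read from the other strand than most. As a percentage of mt-Nd5 counts, its counts came to between 3.39% and 4.5% in the 5 LPS+recAAT libraries and between 0.432% and 0.682% in the 5 LPS+nAAT libraries. The labels name no batch, so libraries above 2% are called the second set here and the others the first set. LPS+oxAAT is the only group with libraries in both, with mice 5103, 5104 and 5105 in the second set and mice 5101 and 5102 in the first. Any difference between these mice by set is part of the spread used in the test. LPS and air lie in the first set. The AAT preparation and the set therefore cannot be told apart between LPS+recAAT and LPS+nAAT, except through those 5 LPS+oxAAT libraries.

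The set was visible in single genes. The values of mt-Nd6, which defines the set, are given as a description with no test. Mt-Nd6 stood at 97.5, 78.2, 76.7, 98.2 and 76.3 CPM in the LPS+recAAT libraries, against 6.82, 5.395, 12.99, 10.3 and 7.48 CPM in the LPS+nAAT libraries. Syn3, which encodes a synapsin of nerve terminals, had 9.10, 8.90, 10.7, 11.2 and 6.36 CPM in LPS+recAAT and 1.33, 1.13, 1.51, 1.62 and 0.940 CPM in LPS+nAAT. Prrg1, a gene for a membrane protein with a vitamin K-dependent domain, averaged 18.1 ± 0.87 CPM in LPS+recAAT and 7.16 ± 0.93 CPM in LPS+nAAT (SD, n = 5 each). All of these groups were fully separate, and Syn3 (log2 fold change 2.83 ± 0.48 SE, adjusted p = 0.00425) and Prrg1 (1.34 ± 0.23, 0.00472) were called. In LPS+oxAAT, Syn3 averaged 9.33 CPM in the 3 mice of the second set and 1.10 CPM in the 2 mice of the first set, and mt-Nd6 averaged 82.2 and 8.86 CPM in the same order of sets. In a model that also held the set, the difference of Syn3 was -0.28 ± 0.38 and that of Prrg1 was 0.21 ± 0.29 (SE).

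**Figure D1:**
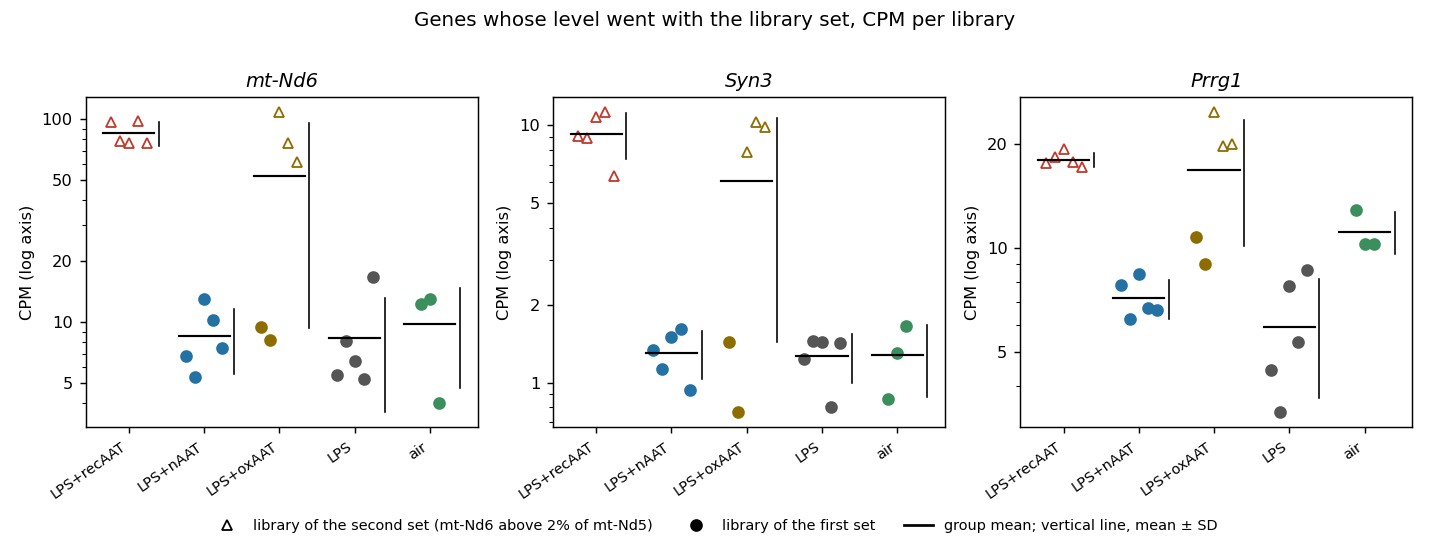
CPM per library (log axis) of mt-Nd6, Syn3 and Prrg1 in the 5 groups, LPS+recAAT and LPS+nAAT first. Open triangles are libraries of the second set, filled circles libraries of the first, horizontal lines group means and vertical lines mean ± SD. The LPS+oxAAT libraries split by set in each panel.

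Across the genome, LPS+recAAT lungs differed from LPS+nAAT lungs at 331 of the 17148 tested genes (1.93%), with 207 higher (1.21%) and 124 lower (0.723%). The 207 include mt-Nd6, whose counts define the set, and so do the 74 higher calls of at least 2-fold below. In 959 genes (5.59%) the 5 LPS+recAAT libraries did not overlap the 5 LPS+nAAT libraries in CPM, and 191 of the 207 higher and 106 of the 124 lower calls were among them. The number called fell below 331 by over 1.5 times without mouse 6101 (88), 4105 (138), 6104 (150), 4104 (153), 4102 (173) or 4101 (186). The directions differed in size and gene type. Of the higher calls, 74 reached 2-fold, and 58 of those 74 were predicted genes or unnamed transcripts. Such genes made up 29% of all higher calls, 1.61% of the lower calls and 12.7% of all tested genes. Of the lower calls, 4 reached 2-fold, namely Nr1d1, Cilp, Tex11 and Ptpn20, the last named after its value was seen. The higher calls had a median transcript GC content of 42.6%, against 50.1% for the lower calls and 49.8% for all tested genes. Exons of 41.6% of the higher, 24.2% of the lower and 30.5% of all tested genes overlapped exons of a gene on the other strand. At least 0.5 of the exon length lay opposite such exons in 10.9% of the higher, 0.806% of the lower and 1.38% of all tested genes. The strand setting used in counting is not given in the sources used here, and its part in these differences was not tested.

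Once the library set entered the model as a term, no gene was called, 2093 genes had an unadjusted p under 0.05, and the smallest adjusted p was 0.228. That fit rests on 5 LPS+oxAAT libraries for the set effect, and its SEs were wider, by a median factor of 1.74. Estimates moved differently by direction. All 124 lower calls kept their sign with the set in the model and had a median log2 fold change of -0.40 in that fit, beside a median of -0.46 without it. Of the 207 higher calls, 155 kept their sign, and their median was 0.22 with the set in the model and 0.67 without it. Of the 74 higher calls of at least 2-fold, 13 stayed at or above 2-fold and 23 turned negative, while all 4 lower ones stayed at or beyond 2-fold. The levels in LPS+oxAAT were set beside these groups. For 136 of the higher calls the second-set LPS+oxAAT mean was nearer to LPS+recAAT and the first-set mean nearer to LPS+nAAT, which was so for 31 of the 124 lower calls. Both means were nearer to LPS+recAAT for 64 higher and 56 lower calls, and both nearer to LPS+nAAT for 5 and 20. The LPS mean was nearer to LPS+recAAT for 16 higher and 53 lower calls. Over second-set LPS+oxAAT, LPS+recAAT had a median log2 fold change of 0.00615 for the higher and -0.149 for the lower calls. The fits with and without the set share the LPS+recAAT and LPS+nAAT libraries, so they are 2 estimates from overlapping data.

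**Figure D2:**
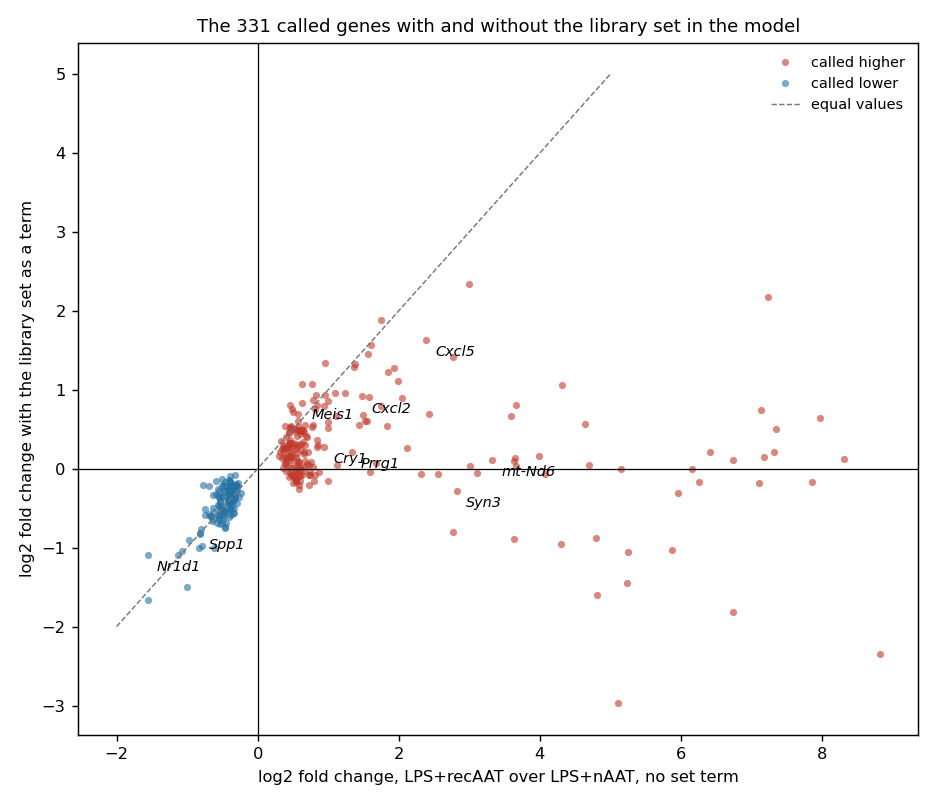
Log2 fold change of LPS+recAAT over LPS+nAAT for the 331 called genes, without the library set (horizontal axis) and with it as a term (vertical axis). Lower calls lie near the line of equal values, whereas many of the largest higher calls lie near or under 0 on the vertical axis.

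The higher calls included 4 chemokines that attract neutrophils. Cxcl1, Cxcl2, Cxcl3 and Cxcl5 encode ligands of the neutrophil receptor CXCR2, lie together on chromosome 5 and are classical targets of NF-kB downstream of TLR4. The promoter windows of 3 of them are printed because the 4 genes moved together, and the source of windows held none for Cxcl5. Each runs from 250 bases before to 50 bases after the transcript start in RefSeq (GRCm38.p6, all on the plus strand), 5′ to 3′. The capitals mark matches to the NF-kB core (GGG, any 3 bases, then TTCC) on either strand.
Cxcl1 (chr5:90890995-90891294): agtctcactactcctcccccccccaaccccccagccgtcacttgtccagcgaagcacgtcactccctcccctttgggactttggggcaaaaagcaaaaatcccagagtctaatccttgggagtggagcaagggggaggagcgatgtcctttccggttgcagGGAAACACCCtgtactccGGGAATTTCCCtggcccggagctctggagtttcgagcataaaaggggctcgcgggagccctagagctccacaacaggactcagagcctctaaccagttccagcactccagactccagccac
Cxcl2 (chr5:90903649-90903948): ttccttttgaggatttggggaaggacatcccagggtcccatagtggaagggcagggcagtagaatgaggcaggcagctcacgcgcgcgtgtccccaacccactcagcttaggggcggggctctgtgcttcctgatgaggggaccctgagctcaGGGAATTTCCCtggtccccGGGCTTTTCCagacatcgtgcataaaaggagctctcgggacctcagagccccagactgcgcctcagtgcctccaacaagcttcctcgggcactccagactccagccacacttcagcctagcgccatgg
Cxcl3 (chr5:90785851-90786150): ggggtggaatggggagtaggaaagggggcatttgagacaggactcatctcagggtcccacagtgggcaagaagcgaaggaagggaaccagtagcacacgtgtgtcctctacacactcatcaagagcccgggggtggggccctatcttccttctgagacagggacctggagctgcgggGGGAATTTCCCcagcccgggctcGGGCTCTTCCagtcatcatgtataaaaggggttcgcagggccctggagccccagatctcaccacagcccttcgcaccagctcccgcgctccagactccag
Each window held 3 matches, a pair of which overlapped. The first bases of the matches lay at -89, -71 and -70 in Cxcl1, at -97, -96 and -78 in Cxcl2 and at -73, -72 and -50 in Cxcl3, counted from the transcript start. Among cytokine genes that were not called, the window of Il6 held 1 match, and those of Tnf, Ccl3 and Cxcl15 held 0. The same letters occur in 5.56% of 32851 promoter windows of the same length. A match is a description of letters and shows no binding.

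Cxcl5, which lung epithelium makes in quantity after LPS, was measured at 32.7, 10.8, 27.1, 13.9 and 40.15 CPM in the LPS+recAAT lungs, against 4.79, 3.46, 4.90, 6.51 and 4.50 CPM in the LPS+nAAT lungs. Every LPS+recAAT library lay above every LPS+nAAT library, although mice 6102 and 6104 were well below the other LPS+recAAT mice. The difference was 5.23-fold (log2 fold change 2.39 ± 0.34 SE, adjusted p = 0.00202). Cxcl2, made mainly by macrophages and neutrophils, had 8.44, 7.91, 9.75, 6.95 and 11.9 CPM in LPS+recAAT and 3.06, 2.87, 3.31, 3.80 and 3.18 CPM in LPS+nAAT. The groups were again separate, and the lowest LPS+recAAT value was well above the highest LPS+nAAT value (2.80-fold, 1.48 ± 0.25, 0.00425). Cxcl1 had 22, 14.4, 16.1, 11.9 and 17.8 CPM in LPS+recAAT and 7.39, 4.22, 7.34, 7.37 and 8.88 CPM in LPS+nAAT (2.35-fold, 1.24 ± 0.21, 0.00425). Cxcl3, a close relative of Cxcl2, had 43.6, 81.4, 87.5, 40.6 and 96.9 CPM in LPS+recAAT and 18.1, 20.1, 18.7, 37.4 and 27.9 CPM in LPS+nAAT. Its groups were separate by a small margin, between mouse 6104 and mouse 4104 (2.88-fold, 1.52 ± 0.34, 0.0247).

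The calls of Cxcl1, Cxcl2 and Cxcl5 held when any 1 of the 10 libraries was left out. That of Cxcl3 was lost without mouse 4101, 4102, 4103, 4105, 6103 or 6105, with adjusted p between 0.0524 and 0.0658. With the library set in the model the estimates were 1.63 ± 0.56 for Cxcl5, 0.92 ± 0.41 for Cxcl2, 0.96 ± 0.36 for Cxcl1 and 0.60 ± 0.55 for Cxcl3 (SE), and none was called (adjusted p = 0.324, 0.373, 0.324 and 0.685 in that order). Placement among the other groups differed between the genes. Cxcl2 averaged 7.86 ± 3.61 CPM in LPS and Cxcl1 12.6 ± 3.87 CPM (SD, n = 5), nearer on the log scale to LPS+recAAT than to LPS+nAAT, and their means in the first-set LPS+oxAAT mice, 6.33 CPM for Cxcl2 and 11.2 CPM for Cxcl1, were also nearer to LPS+recAAT. For Cxcl5 the LPS mean was 7.70 ± 2.51 CPM and the first-set LPS+oxAAT mean 8.33 CPM, nearer to LPS+nAAT, while the second-set LPS+oxAAT mean was 13.9 CPM. Cxcl2 was lower in LPS+nAAT than in LPS (log2 fold change -1.28, adjusted p = 0.0186), and Cxcl5 was higher in LPS+recAAT than in LPS (adjusted p = 0.00289). These 2 contrasts share the LPS libraries. In clean air the means were 3.08 CPM for Cxcl1, 2.07 CPM for Cxcl2, 1.196 CPM for Cxcl3 and 0.677 CPM for Cxcl5 (n = 3), below every LPS-exposed group.

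**Figure D3:**
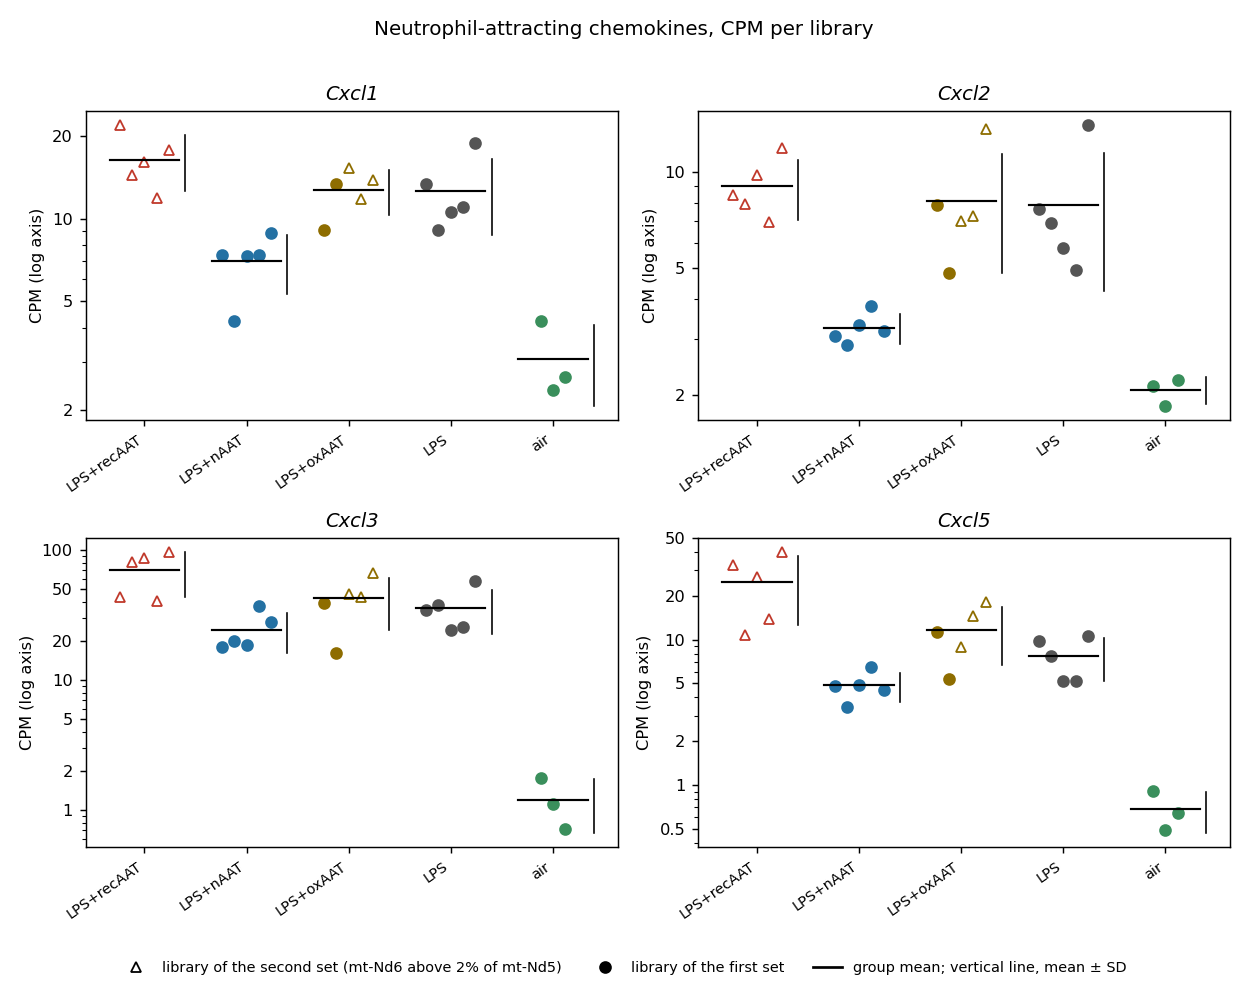
CPM per library (log axis) of Cxcl1, Cxcl2, Cxcl3 and Cxcl5, with LPS+recAAT left of LPS+nAAT. Triangles are second-set libraries, circles first-set libraries, horizontal lines group means and vertical lines mean ± SD. In each panel all 5 LPS+recAAT values lie above all 5 LPS+nAAT values.

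Of 18 tested inflammatory cytokines and chemokines, 4 were higher (beside 1.21% of all genes), none was lower, and 15 had a positive sign, with a median log2 fold change of 0.50 beside 0.00265 over all tested genes. Tnf, the early macrophage cytokine, had 5.90 ± 1.05 CPM in LPS+recAAT and 3.87 ± 0.66 CPM in LPS+nAAT (SD, n = 5 each). Its groups did not overlap, but it was not called (0.62 ± 0.21 SE, adjusted p = 0.129). Il1b, which encodes IL-1 beta, was at 62.5 ± 22.6 CPM in LPS+recAAT and 55.95 ± 9.88 CPM in LPS+nAAT (0.16 ± 0.19, 0.759). Cxcl15, a chemokine of lung epithelium, lay the other way at 1383 ± 222 CPM in LPS+recAAT and 1922 ± 370 CPM in LPS+nAAT (-0.47 ± 0.14, 0.0756). Ccl20, a ligand of CCR6, averaged 5.10 ± 2.86 CPM in LPS+recAAT and 2.54 ± 0.97 CPM in LPS+nAAT (1.02 ± 0.35, 0.15).

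Close to the TLR4 pathway, Cd14 was called higher. It was the only called gene of the 15 tested members of the TLR4 complex and its adaptors (beside 1.21% of all genes higher). Cd14 had 121, 135, 161, 133 and 186 CPM in LPS+recAAT and 113, 80.6, 81.2, 101 and 96.2 CPM in LPS+nAAT (1.56-fold, 0.64 ± 0.12 SE, adjusted p = 0.00938). The groups were separate, and the call held without any 1 library. Its LPS mean, 134 ± 18.3 CPM (SD, n = 5), was nearer to LPS+recAAT. Cxcl10, a ligand of the lymphocyte receptor CXCR3, averaged 7.14 ± 1.42 CPM in LPS+recAAT and 3.98 ± 0.91 CPM in LPS+nAAT (1.79-fold, 0.84 ± 0.17, 0.0135). Among 13 CXCR3 ligands and interferon-gamma induced genes it was the single call (beside 1.21% of all genes higher), and their median was 0.08. The 24 type I interferon genes held no call. Zfp36l1 encodes a protein that binds AU-rich mRNA and speeds its decay. It was the single call (beside 1.21% of all genes higher) among 9 genes for regulators of inflammatory mRNA. It had 298 ± 29.8 CPM in LPS+recAAT and 216 ± 7.82 CPM in LPS+nAAT (0.47 ± 0.11, 0.0226). A fraction of 0.559 of its exon length lies opposite exons of another gene. The Zfp36l1 call was lost without mouse 4104, 4105 or 6101 (adjusted p = 0.0601, 0.0565 and 0.085). None of the 18 NF-kB subunits, inhibitors and feedback genes was called, and their median was 0.15.

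The smallest p in the whole comparison belonged to a clock gene. Nr1d1 (ENSMUSG00000020889, chr11:98767932-98775333, minus strand, GRCm38) encodes REV-ERB-alpha, a heme-binding repressor of the clock and of inflammatory genes. It had 78.3, 78.1, 110.6, 79.75 and 87.2 CPM in the LPS+recAAT lungs and 288, 253, 179, 249.5 and 306 CPM in the LPS+nAAT lungs. The groups were far apart: the highest LPS+recAAT value, of mouse 6103, was well below the lowest LPS+nAAT value, of mouse 4103. The log2 fold change of Nr1d1 was -1.56 ± 0.16 (SE, adjusted p = 2.04e-05), and its call held without any 1 library, with adjusted p of at most 0.000284. LPS+recAAT was also below every other group, with means of 226 CPM in second-set LPS+oxAAT, 311 CPM in first-set LPS+oxAAT and 171 ± 38.8 CPM in LPS (SD, n = 5). With the set in the model the estimate was -1.09 ± 0.26, at an adjusted p of 0.315. A fraction of 0.0855 of the exon length of Nr1d1 lies opposite exons of another gene; Thra, its neighbour on the other strand, chosen after values were seen, had 104 ± 6.4 CPM in LPS+recAAT and 120 ± 10.7 CPM in LPS+nAAT (-0.20 ± 0.07, 0.165).

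Besides Nr1d1, 2 of the 18 tested clock genes described here were called. Cry1, a repressor of the core clock, had 31.6, 36.2, 31.2, 33.5 and 32.2 CPM in LPS+recAAT and 14.1, 16.9, 20.9, 17.2 and 16.6 CPM in LPS+nAAT (1.92-fold, 0.94 ± 0.16 SE, adjusted p = 0.00402). The groups were separate, and the call held without any 1 library. Dbp, a clock output factor of the PAR bZIP family, had 77.8, 54.5, 89.8, 71.2 and 89.2 CPM in LPS+recAAT and 122, 126, 108, 140 and 161.5 CPM in LPS+nAAT (-0.78 ± 0.17, 0.0162), and its call was lost without mouse 4105 (adjusted p = 0.0533). The other clock genes were not called. Among them, Npas2, a partner of BMAL1, lay just outside the threshold (0.77 ± 0.21, 0.0519), Arntl, which encodes BMAL1, differed little (0.12 ± 0.15, 0.762), and so did Nr1d2, the paralog of Nr1d1 (0.11 ± 0.14, 0.785). Per1, Per2 and Per3, the period genes, had log2 fold changes of -0.27, 0.50 and 0.29. Of the 18 genes, 1 was higher (beside 1.21% of all genes) and 2 were lower (beside 0.723%), and the median was 0.08. With only LPS+recAAT and LPS+nAAT in the fit, 3 were higher and 3 lower, and with limma voom 5 were higher and 2 lower. With genes that have exons opposite another gene left out, 10 clock genes were tested, of which 1 was higher and none lower.

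With the set in the model, the estimates were 0.28 ± 0.23 for Cry1 and -0.20 ± 0.25 for Dbp (SE), and neither was called. The mean of Cry1 was 24.7 CPM in second-set and 15.6 CPM in first-set LPS+oxAAT. The hour of day at which lungs were taken is not given in the labels. The promoter window of Cry1 held 1 match to the E-box CACGTG, at -60, and those of Nr1d1 and Dbp held no match to it or to the REV-ERB core AGGTCA in their 300 bases. CACGTG occurs in 7.15% and AGGTCA in 16.3% of the 32851 windows, on either strand, and a window with no match says nothing of the factors.

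**Figure D4:**
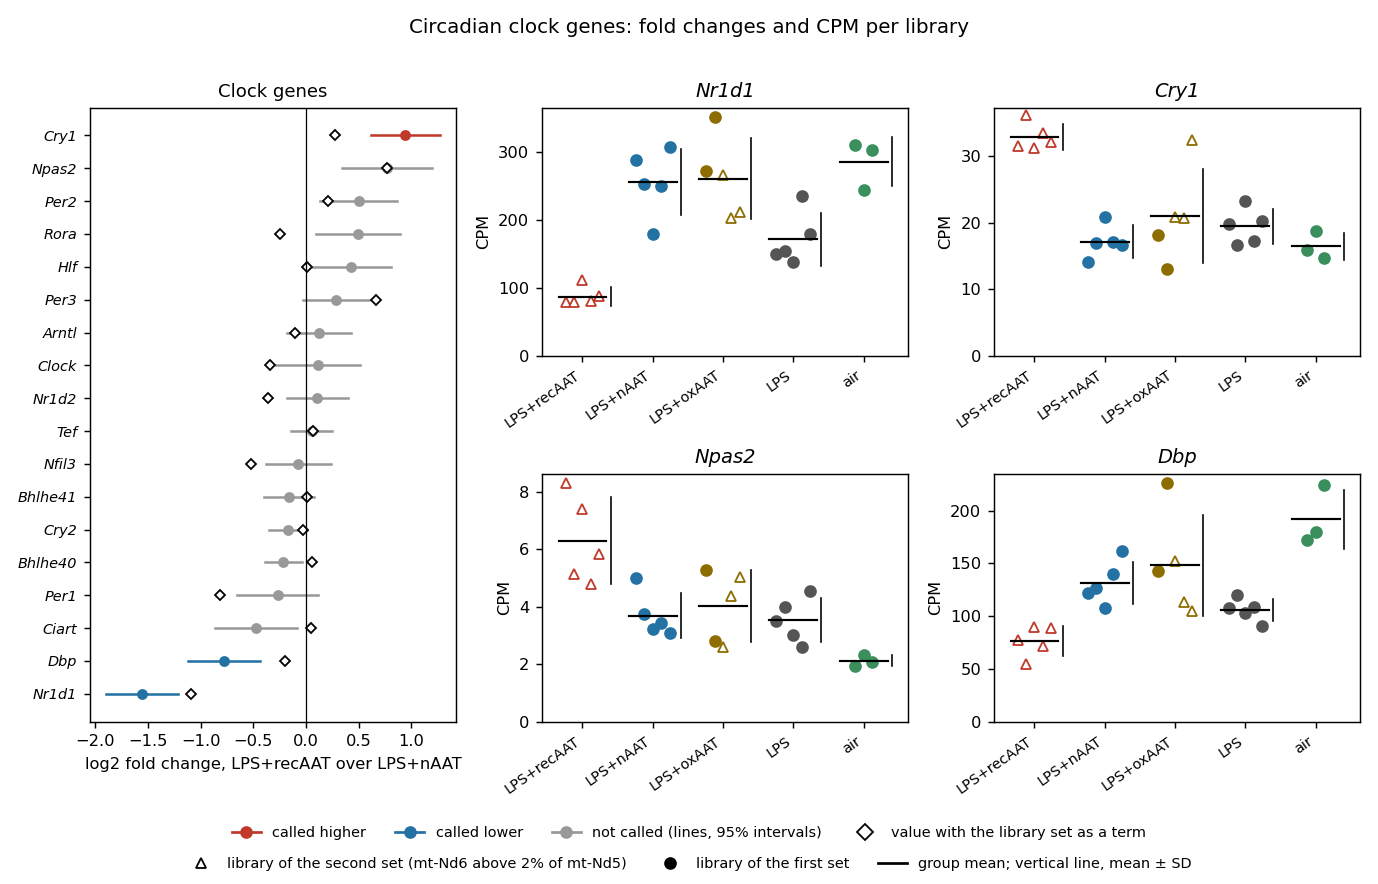
Left, log2 fold change (LPS+recAAT over LPS+nAAT) with 95% interval of the 18 clock genes; diamonds are the estimates with the library set as a term. Right, CPM per library of Nr1d1, Cry1, Npas2 and Dbp by group, LPS+recAAT first, with mean and SD; all 5 LPS+recAAT values of Nr1d1 lie below every other library.

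The lower calls included markers of alveolar macrophages. Of 18 tested markers, 7 were lower (beside 0.723% of all genes) and none higher, 17 had a negative sign, and the median log2 fold change was -0.48. Ear2, an RNase of the eosinophil-associated family that mouse alveolar macrophages express, had 45.1, 50.8, 56.5, 55.4 and 57.1 CPM in LPS+recAAT and 96.2, 80.5, 102, 82.6 and 81.2 CPM in LPS+nAAT (-0.74 ± 0.15 SE, adjusted p = 0.0126). Siglecf, a sialic acid-binding receptor of alveolar macrophages and eosinophils, had 11.8, 12.9, 15.4, 17.4 and 14.3 CPM in LPS+recAAT and 22.5, 22.8, 26.0, 18.8 and 21.2 CPM in LPS+nAAT (-0.64 ± 0.14, 0.0152). Both were separate between the groups. Pparg, which encodes PPAR-gamma, the factor that specifies these cells, had 12.1 ± 1.59 CPM in LPS+recAAT and 17.9 ± 3.19 CPM in LPS+nAAT (SD, n = 5 each; -0.57 ± 0.13, 0.0226). Marco, a scavenger receptor for bacteria and particles, had 4.97, 7.16, 10.9, 7.83 and 7.77 CPM in LPS+recAAT and 23.1, 14.5, 14.3, 10.2 and 14.3 CPM in LPS+nAAT, with an overlap between mouse 6103 and mouse 4104 (-0.997 ± 0.24, 0.0302).

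The remaining called markers were Ear1 (-0.80 ± 0.18 SE), a close paralog of Ear2, Krt79 (-0.82 ± 0.21), a keratin, and Fabp1 (-0.66 ± 0.17), a fatty acid-binding protein, with adjusted p of 0.0247, 0.0454 and 0.0405. Ear1 and Ear2 have near-identical copies among the Ear genes, so the split of reads between them is uncertain. Chil3, a chitinase-like protein abundant in these cells, had 243 ± 98.5 CPM in LPS+recAAT and 387 ± 101 CPM in LPS+nAAT and was not called (-0.67 ± 0.21, 0.102). Car4, which is also an endothelial marker, and Plet1 differed little (-0.15 and -0.13). Summed over the 18 markers the level was 1244 to 1998 CPM in LPS+recAAT and 1948 to 2407 CPM in LPS+nAAT. Car4 is part of that sum, at a mean of 277 CPM in LPS+recAAT and 307 CPM in LPS+nAAT. In whole lung, fewer macrophages and less RNA of these genes per macrophage cannot be told apart. Most of these calls depended on single libraries: the number lower was 1, that of Ear2, without mouse 6101, 3 without mouse 4101 or 4104, 4 without mouse 4103, 4105 or 6104, and 5 or 6 without any other 1 library. With no filter beyond 1 count 4 were lower, as Ear1, Krt79 and Marco were lost. Krt79 was also lost with the GC curve removed (0.0536) or without the LPS+oxAAT libraries, and Fabp1 with only the groups compared (0.0569). With the library set in the model none was called and the median was -0.59. Against the LPS+oxAAT mice of the second set none was called either, and the median log2 fold change of LPS+recAAT over LPS+oxAAT was -0.22.

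Among 18 monocyte and interstitial macrophage markers, Spp1 and Cd68 were lower (beside 0.723% of all genes), none was higher, and the median was -0.12. Spp1, which encodes the secreted phosphoprotein osteopontin, had 42.7, 58.3, 58.7, 55.8 and 67.0 CPM in LPS+recAAT and 107, 93.5, 105, 97.1 and 96.2 CPM in LPS+nAAT. No LPS+recAAT library reached the lowest LPS+nAAT library (-0.82 ± 0.12 SE, adjusted p = 0.00202), the call held without any 1 library, and the estimate with the set in the model was -0.82 ± 0.22. Its mean was 67.7 ± 9.67 CPM in LPS (SD, n = 5) and 72.05 CPM in second-set and 72.2 CPM in first-set LPS+oxAAT, so LPS+nAAT stood above every other group, and it was higher than LPS by 0.56 on the log2 scale (adjusted p = 0.0354). Cd68, a lysosomal glycoprotein of macrophages, was also lower (85.7 ± 12.9 CPM in LPS+recAAT and 119 ± 8.05 CPM in LPS+nAAT; -0.47 ± 0.12, 0.0405). Of 14 prostaglandin and leukotriene genes, Alox5 (-0.47 ± 0.12, 0.045) and Alox5ap (-0.55 ± 0.13, 0.0243), the 5-lipoxygenase and the protein that presents arachidonic acid to it, were the 2 lower calls (beside 0.723% of all genes), and the median was -0.08. The Cd68 call was lost without mouse 4101, 4102, 4104, 4105, 6101, 6102 or 6104 (adjusted p from 0.0691 to 0.146), that of Alox5 without any 1 library but mouse 4104 (0.0578 to 0.135) and that of Alox5ap without mouse 4101, 4102, 6101, 6102 or 6104 (0.0511 to 0.0905). The calls of Cd68 and Alox5 were also lost with no filter beyond 1 count, and that of Alox5 with library totals as the scaling or with the GC curve removed (0.0509).

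**Figure D5:**
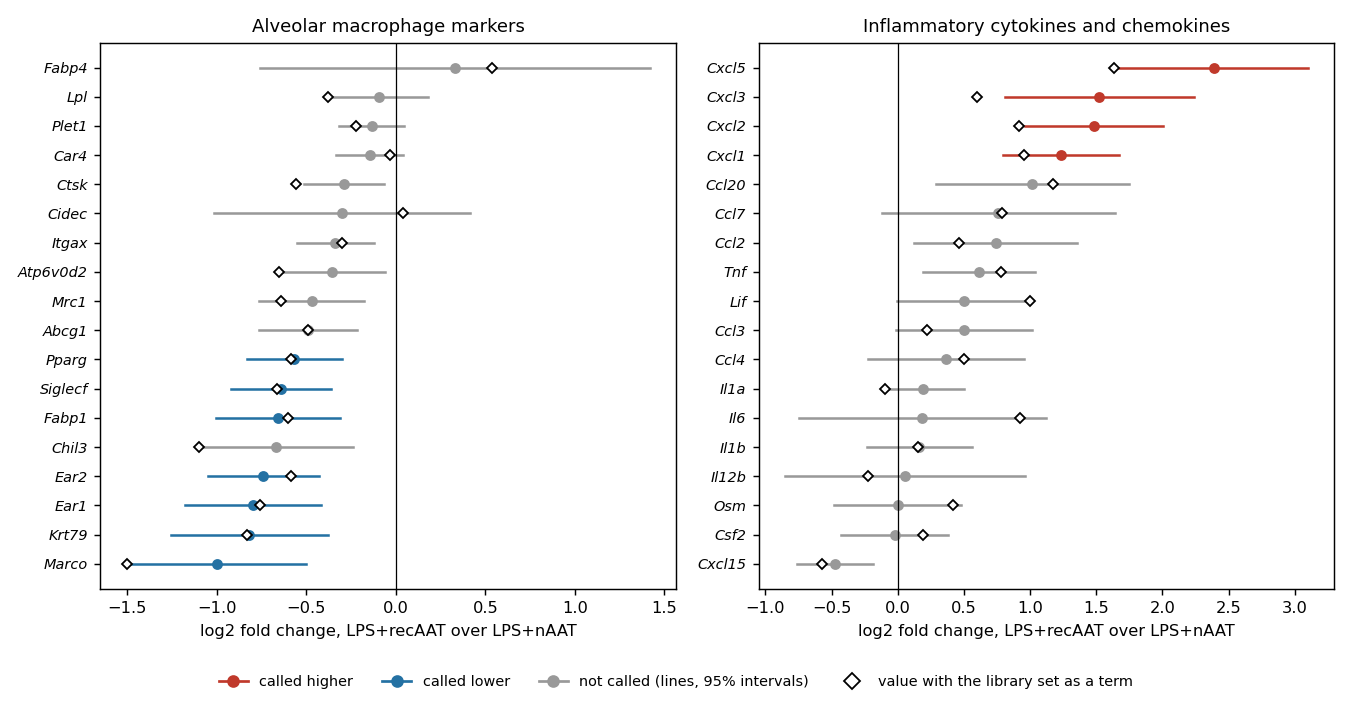
Log2 fold change of LPS+recAAT over LPS+nAAT with 95% interval for 18 alveolar macrophage markers (left) and 18 inflammatory cytokines and chemokines (right). Blue marks lower calls, red higher calls and grey genes not called; diamonds are the estimates with the library set as a term.

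Among the other largest falls were genes of varied roles. Acoxl, related to the peroxisomal acyl-CoA oxidases, had 19.4, 21.7, 25.3, 18.9 and 28.6 CPM in LPS+recAAT and 50.0, 32.9, 34.7, 49.1 and 56.5 CPM in LPS+nAAT (-0.97 ± 0.17 SE, adjusted p = 0.00425). Its groups were separate, LPS was nearer to LPS+nAAT at 38.9 ± 7.38 CPM (SD, n = 5), and the estimate with the set in the model was -0.91 ± 0.30. Cilp, a matrix protein of cartilage and fibroblasts, had 2.01 ± 0.54 CPM in LPS+recAAT and 4.30 ± 0.9998 CPM in LPS+nAAT (-1.13 ± 0.23, 0.0135). Tex11, a gene of meiotic recombination on the X chromosome, had 2.58 ± 0.54 CPM in LPS+recAAT and 5.43 ± 1.001 CPM in LPS+nAAT (-1.06 ± 0.21, 0.01). Slc22a3, an organic cation transporter, had 2.39 ± 0.56 CPM in LPS+recAAT and 4.14 ± 0.41 CPM in LPS+nAAT (-0.79 ± 0.20, 0.0325), a call lost without mouse 4102, 4103, 4104, 4105, 6101, 6102 or 6104 (adjusted p from 0.0504 to 0.0905). Those of Acoxl, Cilp and Tex11 held without any 1 library. In alveolar type 2 cells, Abca3, the lipid transporter of lamellar bodies, was the single call of 14 markers (beside 0.723% of all genes lower). It had 772 ± 50.5 CPM in LPS+recAAT and 958 ± 72.9 CPM in LPS+nAAT (-0.31 ± 0.08, 0.0353). The call was kept only without mouse 4103 or 6102, with adjusted p from 0.0575 to 0.121 without each of the others. The Abca3 call was also lost with only the groups compared in the fit (0.0515), with the GC curve removed (0.0558), with no filter beyond 1 count and without the LPS+oxAAT libraries. Cat, which encodes catalase, was the single call of 17 oxidative stress genes (beside 0.723% of all genes lower). Its log2 fold change was -0.38 ± 0.09 (0.0231), and the call was lost without mouse 4104, 4105, 6101 or 6104 (0.0659 to 0.0905).

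The remaining largest rises, among named genes above the level used for naming, were of noncoding RNAs. Gt(ROSA)26Sor, the transcript of the Rosa26 locus, had 18 ± 5.46 CPM in LPS+recAAT and 6.17 ± 1.51 CPM in LPS+nAAT (1.55 ± 0.25 SE, adjusted p = 0.00332). Snhg14, a host transcript of small nucleolar RNAs, had 3.64 ± 1.30 CPM in LPS+recAAT and 1.19 ± 0.61 CPM in LPS+nAAT (1.58 ± 0.32, 0.013), and its call was lost without mouse 6101 (0.0627) and with a curve of GC content removed (0.0636). All 15 tested noncoding host and long noncoding RNAs had a positive sign, 1 was called higher (beside 1.21% of all genes), and the median was 0.35. The 10 tested protein genes of the mitochondrial genome were likewise all positive, with a median of 0.56 and, with the GC curve removed, of 0.30. They include mt-Nd6 and mt-Nd5, which define the set. Among the other 8 the 1 call (beside 1.21% of all genes higher) was mt-Atp6, a subunit of ATP synthase. The level of mt-Atp6 was 0.80 ± 0.09 CPM in LPS+recAAT and 0.27 ± 0.11 CPM in LPS+nAAT (SD, n = 5 each), and reads shared with near-identical nuclear copies make it uncertain. Its call was lost without mouse 4102, 4104, 4105, 6101, 6103, 6104 or 6105 (0.0511 to 0.103) and with the GC curve removed (0.0611). Second-set LPS+oxAAT averaged 17.04 CPM of Gt(ROSA)26Sor and 3.07 CPM of Snhg14, close to LPS+recAAT, and first-set LPS+oxAAT 8.84 and 1.91 CPM. Gsta3, a glutathione S-transferase, was the single call of 20 xenobiotic and retinoid enzymes (beside 1.21% of all genes higher). It had 218 ± 22.6 CPM in LPS+recAAT and 150 ± 25.8 CPM in LPS+nAAT (0.54 ± 0.12, 0.0162). The Gsta3 call was lost without mouse 4105 (0.0537) and with the GC curve removed (0.0684).

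Several groups that the treatment bears on held no call. Of 21 neutrophil markers, 16 had a negative sign and the median was -0.40. S100a9, a calcium-binding protein of neutrophils, had 87.1 ± 38.6 CPM in LPS+recAAT and 183 ± 95.2 CPM in LPS+nAAT (-1.07 ± 0.31 SE, adjusted p = 0.0799). Summed over the 21 markers the level was 385 to 619 CPM in LPS+recAAT and 429.5 to 895 CPM in LPS+nAAT, and the groups overlapped. The 15 tested neutrophil proteases and their inhibitors had a median of -0.11. All 20 genes of mitosis had a negative sign, with a median of -0.31, and Mki67, the proliferation marker, had 39.8 ± 6.78 CPM in LPS+recAAT and 51.0 ± 11.3 CPM in LPS+nAAT (-0.36 ± 0.13, 0.171). Among 17 glucocorticoid-responsive genes the median was -0.01; Fkbp5 (51.9 ± 24.5 CPM in LPS+recAAT and 70.6 ± 17.2 CPM in LPS+nAAT; -0.45 ± 0.26, 0.45) and Zbtb16 (100 ± 74.9 CPM in LPS+recAAT and 206 ± 50.95 CPM in LPS+nAAT; -1.04 ± 0.57, 0.415) varied widely between mice. Of 19 tested serpin genes none was called. Serpina1b, a mouse gene for AAT, had 5.18 ± 0.44 CPM in LPS+recAAT and 5.99 ± 1.27 CPM in LPS+nAAT (-0.21 ± 0.19, 0.678); its paralogs are near-identical, so these counts are uncertain. These p-values miss the threshold and do not show that the groups were alike: the 95% interval of S100a9 ran from -1.71 to -0.43 and that of Mki67 from -0.63 to -0.09. With the library set in the model the medians were -0.255 for neutrophil markers and -0.434 for mitosis genes. Over second-set LPS+oxAAT, however, the medians for LPS+recAAT were positive, at 0.242 and 0.133 in that order. There S100a9 stood at 0.71 and Mki67 at 0.12, so the sign depended on the group compared.

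A comparison inside the second set asks which genes set LPS+recAAT apart from AAT-treated mice on the same side of the 2% cut. That cut is drawn from the counts, and how the libraries were made is not known to be alike. Against the 3 LPS+oxAAT mice of that set, 4 of 16427 tested genes (0.0244%) were called, with 1 called without mouse 5103 or 5104, 2 without mouse 5105 and 9 without mouse 6102. Nr1d1 was again first: its 5 LPS+recAAT values lay between 78.1 and 110.6 CPM, and the LPS+oxAAT values were 265, 202 and 211 CPM (log2 fold change of LPS+recAAT over LPS+oxAAT -1.38 ± 0.12 SE, adjusted p = 0.000805). It stayed called without any 1 of the 8 libraries, at adjusted p of at most 0.00977. Igfbp3, which binds insulin-like growth factors, had 47.4, 40.8, 44.1, 44.1 and 39.7 CPM in LPS+recAAT and 78.2, 72.6 and 67.3 CPM in second-set LPS+oxAAT (-0.76 ± 0.08, 0.00459). It was lost without mouse 5103 (0.0999) or 5104 (0.0705). Igfbp3 was also lower than in LPS+nAAT, at 57.2 ± 4.11 CPM there (-0.40 ± 0.10, 0.0353), although that call was lost without any 1 library but mouse 4102 (0.0619 to 0.1) and with no filter beyond 1 count. Gadd45g, a stress-induced regulator of growth arrest, and Hgh1 were higher in LPS+recAAT than in second-set LPS+oxAAT (0.82 ± 0.11, 0.0153, and 1.12 ± 0.15, 0.0194), and neither differed from LPS+nAAT by the test (0.24 ± 0.19, 0.602, and 0.33 ± 0.28, 0.635). Gadd45g was lost without mouse 5103, 5104 or 5105 (adjusted p = 0.249, 0.141 and 0.119). Hgh1 was lost without those mice (0.299, 0.255 and 0.119) and without mouse 6103 (0.0676) or 6104 (0.0834). None of the 4 chemokines was called in this comparison, where the log2 fold changes were 0.85 ± 0.49 for Cxcl5, -0.05 ± 0.23 for Cxcl2, 0.27 ± 0.17 for Cxcl1 and 0.42 ± 0.34 for Cxcl3 (SE). Nr1d1 and Igfbp3 were thus the 2 genes called in both comparisons, which share the LPS+recAAT libraries.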

How the data were processed

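RNA of whole mouse lung was sequenced from a stranded poly(A) library per mouse. The deposited files hold raw counts per gene, one column per mouse, made by the authors with STAR 2.4.0.1 and HTSeq 0.11.1 on GRCm38, after FastQC 0.11.8 and Trimmomatic 0.38 and 0.36, per the submitters' processing notes; the strand setting of counting is not given in the sources used here. HTSeq rows that name no gene were left out of library sizes. Reads in no feature were 13.1% in mouse 6101, without which 88 genes were called. They were 8.47% to 9.89% in the other LPS+recAAT libraries and 6.79% to 9.14% in LPS+nAAT. Gene names came from GENCODE and promoter windows from RefSeq (GRCm38.p6).

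All 23 libraries entered 1 fit of group means in edgeR 4.0.16 (R 4.3.3): filterByExpr, TMM scaling, robust quasi-likelihood F test and Benjamini-Hochberg adjustment at 0.05. A separate fit used LPS+recAAT and second-set LPS+oxAAT libraries. Alternatives, with limma 3.58.1 and DESeq2 1.42.0, are given with their effects at the end. Scripts were tested on simulated counts.

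The members and gene lists were chosen with earlier results of these data known. Named genes were the 8 largest changes per direction among called, non-overlapping, non-predicted genes whose mean log2 CPM over all libraries reached 1; those also called against second-set LPS+oxAAT; called members and up to 4 members of smallest p of each list described; and a panel of inflammatory, glucocorticoid, clock, neutrophil, serpin and mitochondrial genes. Thra, Per2, Per3, Npas2, Arntl, Nr1d2, Gadd45g, Hgh1, Chil3, Plet1, Serpina1b, Ptpn20 and the genes of the closing observations were named after their values were seen. Some genes are not reported here, and the clock list leaves out 1 of them.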

Additional observations from a re-analysis of the deposited data

Results flagged for a closer look

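In 164 groups of 5 mice (the LPS+recAAT and LPS+nAAT values of the genes named or held in the panel), 7 groups (4.27%) had a mouse that stood apart from the other 4 by Dixon's criterion, which chance gives in about 1 in 20. Mouse 6103 was the highest LPS+recAAT library for Nr1d1, at 110.6 CPM, and was still below every LPS+nAAT library. Mouse 6104 was the highest LPS+recAAT library for Alox5, at 15.38 CPM, where the other 4 lay between 13.9 and 14.14 CPM. Mouse 6105 was the highest LPS+recAAT library for Il1b, at 102.8 CPM, where the other 4 lay between 50.33 and 54.77 CPM. Mouse 4103 was the lowest LPS+nAAT library for Il6, at 0.04191 CPM. Mouse 6101 was the lowest LPS+recAAT library for Gusb, at 63.84 CPM, and the highest LPS+recAAT library for Thra, at 115 CPM. Mouse 4102 was the lowest LPS+nAAT library for Phactr1, at 157.7 CPM.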

How the results depend on the processing

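The library set coincides with the comparison, and depth (14.8 M counts in the shallowest LPS+recAAT library) limits genes of low level. The count of 331 calls (207 higher, 124 lower) moved by over 1.5 times under 6 settings. It was 54 at an adjusted p under 0.01, 0 with the library set as a term, 602 with the Wald test of DESeq2, 1523 with limma voom, 561 with only the groups compared and 208 with genes that have exons opposite another gene left out. It lay between 88 and 282 when 1 mouse was left out. It was 318 with DESeq2 size factors, 362 with library totals, 314 with a stricter filter, 329 without robust dispersion, 389 with a GC curve removed, 361 without the LPS+oxAAT libraries (an alternative chosen after seeing the data), and 251 with no filter beyond 1 count, where 75.3% were higher, beside 62.5% in the fit reported. The mice share only the last digit of their numbers; with it as a replicate block 420 genes were called, and the same-digit correlations of deviations (0.281, 0.125, -0.145, 0.092 and 0.0596) do not pair the mice. The 4 calls against second-set LPS+oxAAT were 2 at an adjusted p under 0.01, 7 with no filter, 45 with DESeq2, and 1 to 9 with 1 mouse left out. Of 47 called named genes, 22 stayed called without each mouse in turn and 25 were lost without at least 1. The sign of Syn3 turned with the library set as a term (-0.28), and no other of the 47 called genes changed sign under the settings run. Genes that were not called did, among them Klf9 with the library set as a term (0.06 without it and -0.61 with it) and Il1b, whose value lay between -0.09 and 0.25 with 1 mouse left out. The cause of these moves was not tested.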

Other observations

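The lower calls held 7 genes known for roles in the lysosome or its acidification. They were chosen after their values were seen, from no fixed list and with no count of all such genes, so their number supports nothing. Ctsd, the aspartic protease cathepsin D, had 1009 ± 145 CPM in LPS+recAAT and 1352 ± 37.8 CPM in LPS+nAAT (SD, n = 5 each; log2 fold change -0.42, adjusted p = 0.0317 in edgeR). Ctss, the cysteine protease cathepsin S, averaged 264.5 CPM in LPS+recAAT and 387 CPM in LPS+nAAT (-0.55, 0.0317). Lgmn, the asparaginyl protease legumain, averaged 127 CPM in LPS+recAAT and 164 CPM in LPS+nAAT (-0.37, 0.0291). The glycosidase genes Manba (-0.41, 0.0143) and Gusb (-0.33, 0.0243) were lower too. So were Atp6v1b2 (-0.37, 0.0233) and Atp6v1c2 (-0.68, 0.00815), subunits of the proton pump that acidifies lysosomes. When 1 of the 10 mice was left out at a time, the call of Ctss was lost in 8 fits, those of Ctsd and Lgmn in 6, that of Atp6v1b2 in 5, that of Gusb in 4 and that of Manba in 1, and that of Atp6v1c2 in none. The calls of Ctsd, Lgmn and Gusb were also lost with no filter beyond 1 count. None of the 7 was called with the library set as a term.

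Another 4 calls of small p lay outside the lists and were chosen after their values were seen. Each was kept without any 1 of the 10 mice, and none was called with the library set as a term. Meis1, a homeobox factor, averaged 70.6 ± 11.2 CPM in LPS+recAAT and 45.7 ± 3.33 CPM in LPS+nAAT (SD, n = 5 each; 0.63, 0.00202), and its estimate with the library set as a term was 0.83. Nr2f2, a nuclear receptor of veins and mesenchyme, averaged 89.3 CPM in LPS+recAAT and 56.1 CPM in LPS+nAAT (0.67, 0.00202). Phactr1, a regulator of actin and protein phosphatase, was lower, at 115 ± 10.3 CPM in LPS+recAAT and 161.5 ± 2.17 CPM in LPS+nAAT (-0.49, 0.00202). Cpm, a membrane carboxypeptidase, was lower, at 136 ± 4.49 CPM in LPS+recAAT and 202 ± 21.7 CPM in LPS+nAAT (-0.57, 0.00332).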
